A study of Mus musculus with 6 samples.

Results

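Basic helix-loop-helix (bHLH) factors bind DNA as dimers through a basic stretch next to a pair of helices joined by a loop, and most of them recognise the E-box, a short element whose letters run CANNTG. Class II members such as the HAND and TWIST proteins usually pair with broadly expressed E proteins, so their output depends on which partner is at hand as well as on their own level. In the embryo Hand1 and Hand2 are known for building the ventricles of the heart, and the TWIST factors for keeping mesenchyme of the head, limb and heart valves in a migratory, undifferentiated state. The genes described here are the rows that the deposited table labels with the transcription factor family bHLH, without Sohlh2 and without the Hes and Hey genes. The rule left 10 genes of the 2031 in the table (13 carried the label, and 228 carried any family label). They were Hand1, Hand2, Twist1, Twist2, Ferd3l, Atoh8, Hif3a, Bhlhe41, Mxd4 and Tcfl5.

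RNA was sequenced from J1 mouse embryonic stem cells (a single line of strain 129S4/SvJae) that had been induced towards heart muscle as hanging-drop embryoid bodies, aggregates that formed within 3 days. The MF group (3 libraries) was kept in a static magnetic field incubator and the NC group (3 libraries) in a conventional incubator, and no gene was altered in either group. The series calls the libraries biological triplicates of embryoid bodies. The sources used here do not give the field strength, the length of exposure or the collection day, and all cells came from 1 line, so p-values measure the spread between these cultures.

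Library totals, recovered from count and FPKM, were 19176383, 16801089 and 16276230 counts for MF replicates 1 to 3 and 15655958, 16110497 and 14929232 counts for NC replicates 1 to 3. Of 14 cardiomyocyte markers, 12 were in the table, and their summed level was 164 to 732 FPKM (fragments scaled to gene length and to the library total) in MF and 40.1 to 86.4 FPKM in NC, with none of the 12 at 0 in any library. MF replicate 2 and NC replicate 2 stood apart. By chi-square per degree of freedom over the deposited counts, MF replicate 2 differed less from NC replicates 1 and 3 (77.0 and 69.5) than from MF replicates 1 and 3 (259 and 179), which differed from each other by 31.9. NC replicate 2 differed from NC replicates 1 and 3 by 109 and 129, and these from each other by 22.3. Among the 1052 tested genes that were higher in MF, MF replicate 2 held the lowest MF level for 82.8% and NC replicate 2 the lowest NC level for 72.1%. Each gene's level in MF replicate 2 was divided by its mean in the other MF libraries, and the median of these ratios was 0.589. Values without MF replicate 2 are therefore given with each gene, and those without both replicate 2 libraries for the main ones.

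The authors had already selected these genes by the contrast of MF with NC: in the authors' deposited table no adjusted p is above 0.0499 and no log2 fold change is smaller in size than 1.001. A new test on the same libraries repeats that selection. In edgeR (quasi-likelihood test, p-values adjusted by Benjamini-Hochberg over the 1651 genes tested), 8 of the 10 bHLH genes rose in MF and 1 (Tcfl5) fell, where 97.5% of all tested genes were called (62.1% higher and 35.4% lower). Bhlhe41 did not pass. The groups did not overlap for any of the 10 (9 higher in MF, 1 lower), as for 92.5% of all tested genes (58.4% higher and 34.2% lower). These shares are near the background and are no result about the bHLH genes; the sizes, levels and patterns of the members follow.

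The shares of all tested genes given in this paragraph count calls in either direction. The count of rises depended on the libraries and on the scale. It was 0 without MF replicate 3, 3 without MF replicate 1 and 8 without MF replicate 2, where 0.727%, 27.1% and 95.6% of all tested genes were called. It was 4 without NC replicate 1, 5 without NC replicate 2 and 5 without NC replicate 3, where 38.8%, 44.5% and 61.3% were called. The calls over the whole table thus fell away with the same libraries. The count of falls was 0 without MF replicate 1, MF replicate 3, NC replicate 1 or NC replicate 3. With adjustment over the 19069 tests that the authors' values imply, edgeR called none of the 10 and none of the 1651 genes (1613 had an unadjusted p under 0.05), and DESeq2 called 3 of the 10 and 598 of the 1651 genes (36.2%). With the replicate number as a block, the wider adjustment called 5 of the 10 and 504 of the 1651 genes (30.5%). Under TMM or median-of-ratios scaling computed on the selected genes the rises were 2, Hand2 and Twist1, with 53.3% and 40.3% of all tested genes called; these scalings moved the median log2 fold change of all tested genes from 1.22 to 0.52 and 0.16.

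**Figure D1:**
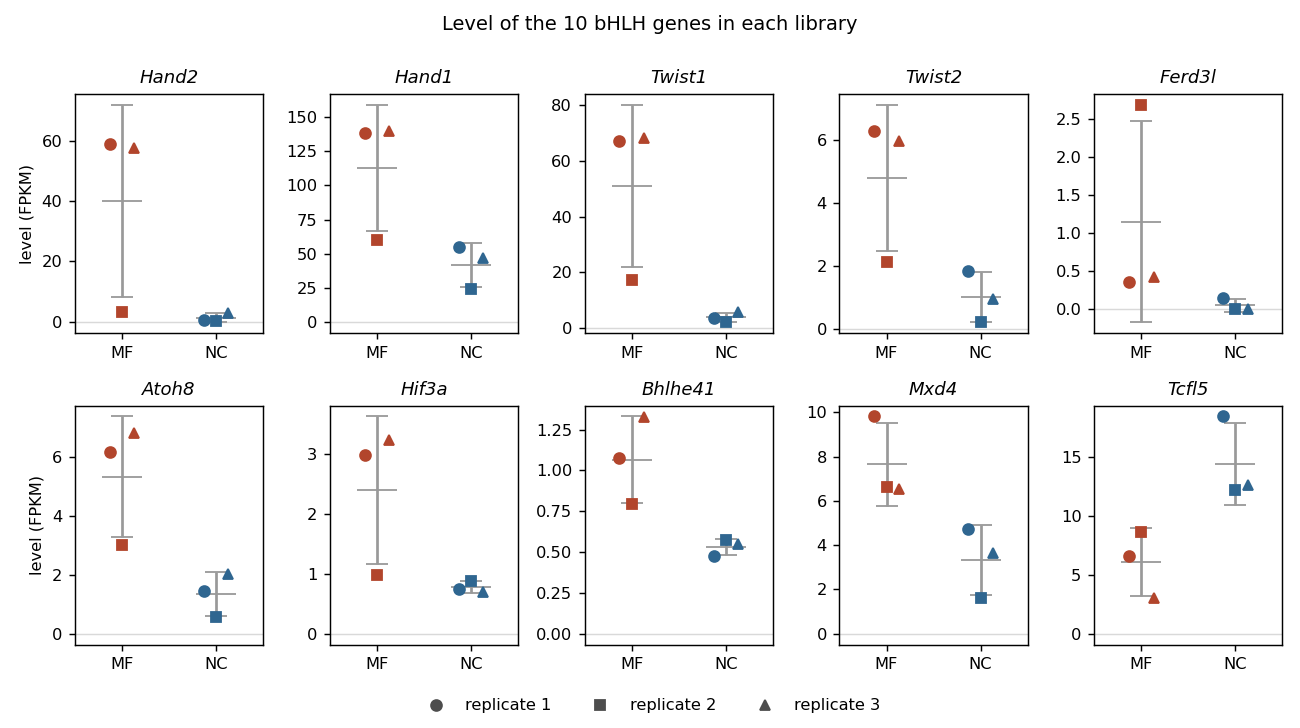
Level in FPKM (linear axis, own scale for each gene) of the 10 bHLH genes in the 3 MF libraries (left in each panel) and the 3 NC libraries (right). Points are libraries, with the shape giving the replicate number, and grey bars are the mean ± SD; MF replicate 2 is the low MF point for Hand2, Hand1 and Twist1 and the high one for Ferd3l and Tcfl5.

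The HAND pair comes first because its members, though close in sequence, differed in how far they moved. Hand2 is needed for the right ventricle, the pharyngeal arches and the limb bud, and Hand1 for the left ventricle and for extra-embryonic tissue. The most alike 150 coding bases of the pair are shown to let the copies be compared; capitals mark the 20 positions at which they differ, and the other 130 (86.7%) are equal, with a longest equal run of 17 bases. They are coding bases 319 to 468 of Hand2 and 304 to 453 of Hand1, in the GENCODE transcripts of GRCm38.
Hand2: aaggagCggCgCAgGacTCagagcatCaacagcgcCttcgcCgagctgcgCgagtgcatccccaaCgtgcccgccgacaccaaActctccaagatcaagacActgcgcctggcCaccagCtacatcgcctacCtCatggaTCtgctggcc
Hand1: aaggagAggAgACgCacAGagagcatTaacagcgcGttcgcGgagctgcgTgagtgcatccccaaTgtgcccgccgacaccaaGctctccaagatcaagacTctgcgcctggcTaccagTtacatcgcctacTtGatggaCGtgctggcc

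Hand2 (ENSMUSG00000038193, mm10 chromosome 8, 57320983 to 57324633, plus strand) had 59.1, 3.11 and 57.7 FPKM in MF replicates 1 to 3, against 0.543, 0.238 and 2.96 FPKM in NC replicates 1 to 3. MF replicates 1 and 3 were high and alike, while MF replicate 2 lay just above the highest NC library, at 1.05 times its level, so the groups touch without overlapping. The means were 40.0 ± 31.9 FPKM in MF and 1.25 ± 1.49 FPKM in NC (SD, n = 3 each). Hand2 rose by 5.00 on the log2 scale (SE 1.19, 32.1-fold, edgeR adjusted p = 0.0155). Within the replicate numbers, which no label states to be pairs, the MF to NC ratio was 109, 13.1 and 19.5 for numbers 1, 2 and 3. Without MF replicate 2 the log2 fold change was 5.55, without NC replicate 3 it was 6.67, and without MF replicate 3 the call was lost (4.64, edgeR adjusted p = 0.0658). In such bulk RNA a larger share of cells that express a gene and more of its RNA per cell cannot be told apart.

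Hand1 (ENSMUSG00000037335, chromosome 11, 57828705 to 57832818, minus strand) had 138, 59.8 and 140 FPKM in MF replicates 1 to 3, against 54.8, 24.2 and 46.7 FPKM in NC replicates 1 to 3. Replicate 2 was the lowest library of both groups, and the lowest MF value stood at 1.09 times the highest NC value. Hand1 averaged 113 ± 45.8 FPKM in MF and 41.9 ± 15.8 FPKM in NC (SD, n = 3 each), and it rose 2.69-fold (log2 1.43, SE 0.48, edgeR adjusted p = 0.0276). Its ratio within replicate numbers was even, at 2.52, 2.47 and 3.00. The log2 fold change was 1.73 without MF replicate 2. The call was lost without MF replicate 1, MF replicate 3, NC replicate 1 or NC replicate 2 (edgeR adjusted p from 0.0516 to 0.0985).

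Hand1 was thus present in both groups and Hand2 was high in MF replicates 1 and 3. On the FPKM scale Hand2 reached 42.8%, 5.21% and 41.2% of the Hand1 level in MF replicates 1 to 3, against 0.992%, 0.981% and 6.34% in NC replicates 1 to 3. MF replicate 2 and NC replicate 3 had the closest ratios between the groups. The 10 genes together summed to 298, 105 and 293 FPKM in MF and to 86.6, 42.7 and 75.8 FPKM in NC. Of that sum Hand1 took 46.4%, 56.9% and 47.7% in MF and 63.2%, 56.7% and 61.6% in NC, and Hand2 took 19.9%, 2.96% and 19.7% in MF and 0.628%, 0.557% and 3.91% in NC.

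Twist1 and Twist2 are the other pair of close copies. Twist1 is known from cranial neural crest, limb and valve mesenchyme and as an inducer of epithelial-mesenchymal transition, and Twist2 from dermis and other mesenchyme. Their most alike 150 coding bases are shown for the same reason; 135 (90%) are equal, capitals mark the 15 that differ, and the longest equal run is 23 bases. They are coding bases 347 to 496 of Twist1 and 209 to 358 of Twist2. Over all 45 pairs among the 10 genes, none shared an exact stretch of 25 bases or more between their annotated protein-coding transcripts. Other transcripts of these genes were not compared.
Twist1: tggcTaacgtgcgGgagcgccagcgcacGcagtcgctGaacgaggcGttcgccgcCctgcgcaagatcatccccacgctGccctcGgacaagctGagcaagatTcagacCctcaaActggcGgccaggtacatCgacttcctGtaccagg
Twist2: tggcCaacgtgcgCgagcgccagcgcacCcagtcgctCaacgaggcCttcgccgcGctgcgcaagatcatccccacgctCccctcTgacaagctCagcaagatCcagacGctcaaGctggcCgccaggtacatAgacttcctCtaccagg

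Twist1 (ENSMUSG00000035799, chromosome 12, 33957671 to 33959829, plus strand) had 67.2, 17.3 and 68.2 FPKM in MF replicates 1 to 3, against 3.45, 2.17 and 5.68 FPKM in NC replicates 1 to 3. Every MF library lay above every NC library, with MF replicate 2 the lowest of its group and still 3.04 times the highest NC value. The means were 50.9 ± 29.1 FPKM in MF and 3.77 ± 1.77 FPKM in NC (SD, n = 3 each). Twist1 rose 13.5-fold (log2 3.76, SE 0.63, edgeR adjusted p = 0.0111), and within replicate numbers the ratio was 19.5, 7.94 and 12.0. It was 4.17 on the log2 scale without MF replicate 2, and without MF replicate 3 the call was lost (3.49, edgeR adjusted p = 0.0559).

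Twist2 (ENSMUSG00000007805, chromosome 1, 91801461 to 91848028, plus strand) had 6.29, 2.12 and 5.96 FPKM in MF replicates 1 to 3, against 1.83, 0.235 and 0.971 FPKM in NC replicates 1 to 3. MF replicate 2 was close to NC replicate 1, and the other MF libraries were clear of the NC range. Twist2 averaged 4.79 ± 2.32 FPKM in MF and 1.01 ± 0.799 FPKM in NC (SD, n = 3 each) and rose 4.73-fold (log2 2.24, SE 0.74, edgeR adjusted p = 0.0265). The log2 fold change was 2.60 without MF replicate 2 and 2.99 without NC replicate 1; without MF replicate 1 or MF replicate 3 the call was lost (edgeR adjusted p = 0.0588 and 0.0935). Of its 3174 exonic bases, 1477 (46.5%) are also exonic in Gm29100, a long noncoding gene on the other strand, which had 38, 20 and 50 counts in MF and 5, 3 and 3 counts in NC. The sources used here do not say whether counting used strand, so reads of Twist2 and Gm29100 cannot be told apart over those bases.

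Ferd3l, known in the mouse from the floor plate of the neural tube, lies 28361 bases before Twist1 on the same strand (ENSMUSG00000046518, chromosome 12, 33928425 to 33929310). It had 6, 40 and 6 counts in MF replicates 1 to 3 (0.353, 2.69 and 0.416 FPKM), against 2, 0 and 0 counts in NC replicates 1 to 3 (0.144, 0 and 0 FPKM). MF replicate 2 held most of its counts, the reverse of Twist1, for which that library was the lowest of MF. Per library total the ratio of summed counts was 23.2 (95% exact interval 6.12 to 197, which covers counting error only), and without MF replicate 2 it was 7.90 (1.76 to 72.7). It passed the filter on the mean of 0.5 FPKM through MF alone, mostly through MF replicate 2 (the MF mean was 1.15 FPKM and the NC mean 0.0481 FPKM), so a difference was built in and the test is given as a description. The edgeR call (log2 4.35, SE 1.40, adjusted p = 0.0258, a size that depends on the prior count) was lost without MF replicate 2 (edgeR adjusted p = 0.0689). It was also lost without MF replicate 3, NC replicate 2 or NC replicate 3, and without NC replicate 1 the log2 value was 7.10.

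**Figure D2:**
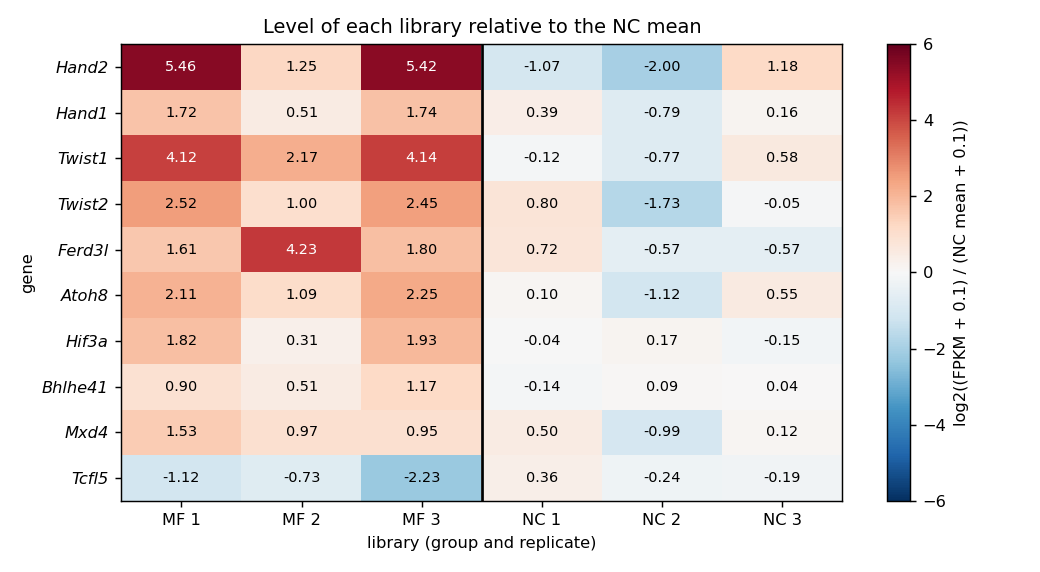
Level of each bHLH gene in each library as log2((FPKM + 0.1) / (NC mean + 0.1)), with genes in rows and libraries in columns, MF left and NC right of the line. Hand2 stood at 5.46 and 5.42 in MF replicates 1 and 3 but at 1.25 in MF replicate 2, and Ferd3l was highest in MF replicate 2 (4.23).

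Atoh8, an atonal-related factor that responds to BMP signals, was the only member of the proneural list in the table (1 of 21). It had 6.16, 2.99 and 6.81 FPKM in MF replicates 1 to 3, against 1.45, 0.569 and 2.03 FPKM in NC replicates 1 to 3. Replicate 2 was the lowest library of both groups, and MF replicate 2 lay above all NC libraries. Atoh8 (ENSMUSG00000037621, chromosome 6, 72206177 to 72235577, minus strand) averaged 5.32 ± 2.04 FPKM in MF and 1.35 ± 0.736 FPKM in NC (SD, n = 3 each) and rose 3.94-fold (log2 1.98, SE 0.60, edgeR adjusted p = 0.0240). With MF replicate 2 left out the log2 fold change was 2.26, and without MF replicate 1, MF replicate 3 or NC replicate 1 the call was lost (edgeR adjusted p from 0.0522 to 0.0909). Of 11 neuronal markers, 1 was in the table, Dcx, and it was below the filter on low values, with a level of 0.144 to 1.62 FPKM in MF and 0 to 0.0794 FPKM in NC.

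Hif3a encodes the third HIF alpha subunit, a bHLH-PAS protein that can temper the activity of the other hypoxia-inducible factors. It had 2.98, 0.985 and 3.23 FPKM in MF replicates 1 to 3, against 0.752, 0.888 and 0.689 FPKM in NC replicates 1 to 3. MF replicates 1 and 3 were high, and MF replicate 2 was close to the tight NC group. Hif3a (ENSMUSG00000004328, chromosome 7, 17031507 to 17062427, minus strand) averaged 2.40 ± 1.23 FPKM in MF and 0.776 ± 0.102 FPKM in NC (SD, n = 3 each) and rose 3.09-fold (log2 1.63, SE 0.53, edgeR adjusted p = 0.0265). With MF replicate 2 left out it was 2.00 on the log2 scale, and the call was lost without MF replicate 1, MF replicate 3, NC replicate 1 or NC replicate 3 (edgeR adjusted p from 0.0576 to 0.0993). Of 13 hypoxia targets, 1 was in the table: Ndrg1 rose 2.32-fold (edgeR adjusted p = 0.0273), with 13.9, 7.62 and 12.0 FPKM in MF and 3.83, 6.31 and 4.33 FPKM in NC.

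Bhlhe41, also called Dec2, is a repressor that acts in the circadian clock. It had 1.08, 0.797 and 1.33 FPKM in MF replicates 1 to 3, against 0.475, 0.573 and 0.548 FPKM in NC replicates 1 to 3. All MF values lay above all NC values, but the difference did not pass the test (2.00-fold, SE 0.49 on the log2 scale, edgeR adjusted p = 0.0671). It passed without MF replicate 2 (log2 1.17, edgeR adjusted p = 0.0281) and with DESeq2 (adjusted p = 0.0311), and under median-of-ratios scaling its sign turned (log2 -0.11). Of the gene's 6720 exonic bases, 1280 (19.0%) overlap exons of Gm43909 on the other strand (ENSMUSG00000030256, chromosome 6, 145858243 to 145865558, minus strand). Tcfl5, Mxd4 and Ferd3l also share 7.39%, 6.06% and 3.61% of their exonic bases with genes on the other strand. Among 17 clock genes 4 were in the table and 3 were tested: Per2 rose 2.44-fold (edgeR adjusted p = 0.0451), Ciart fell 3.04-fold (edgeR adjusted p = 0.0329), and the third was Bhlhe41.

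Mxd4 encodes a partner of MAX that opposes MYC at shared sites. It had 9.82, 6.63 and 6.53 FPKM in MF replicates 1 to 3, against 4.74, 1.62 and 3.64 FPKM in NC replicates 1 to 3. MF replicate 1 was the highest library, and MF replicates 2 and 3 were alike. Mxd4 (ENSMUSG00000037235, chromosome 5, 34173883 to 34187720, minus strand) averaged 7.66 ± 1.87 FPKM in MF and 3.34 ± 1.58 FPKM in NC (SD, n = 3 each) and rose 2.30-fold (log2 1.20, SE 0.46, edgeR adjusted p = 0.0338). Its log2 fold change was 1.29 and still called without MF replicate 2; leaving out any of the other 5 libraries lost the call (edgeR adjusted p from 0.0521 to 0.109).

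Tcfl5, known from spermatocytes of the testis, was the member that fell. It had 6.59, 8.67 and 2.99 FPKM in MF replicates 1 to 3, against 18.4, 12.2 and 12.6 FPKM in NC replicates 1 to 3. MF replicate 3 was the lowest and MF replicate 2 the highest MF library, and all MF values lay below all NC values. Tcfl5 (ENSMUSG00000038932, chromosome 2, 180621956 to 180642708, minus strand) averaged 6.08 ± 2.87 FPKM in MF and 14.4 ± 3.51 FPKM in NC (SD, n = 3 each) and was 2.37-fold lower in MF (log2 -1.24, SE 0.46, edgeR adjusted p = 0.0322). Without MF replicate 2 the log2 fold change was -1.59, and the call was lost without MF replicate 1, MF replicate 3, NC replicate 1 or NC replicate 3 (edgeR adjusted p from 0.0527 to 0.114). It took 2.21%, 8.25% and 1.02% of the summed level of the 10 genes in MF and 21.3%, 28.5% and 16.6% in NC.

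**Figure D3:**
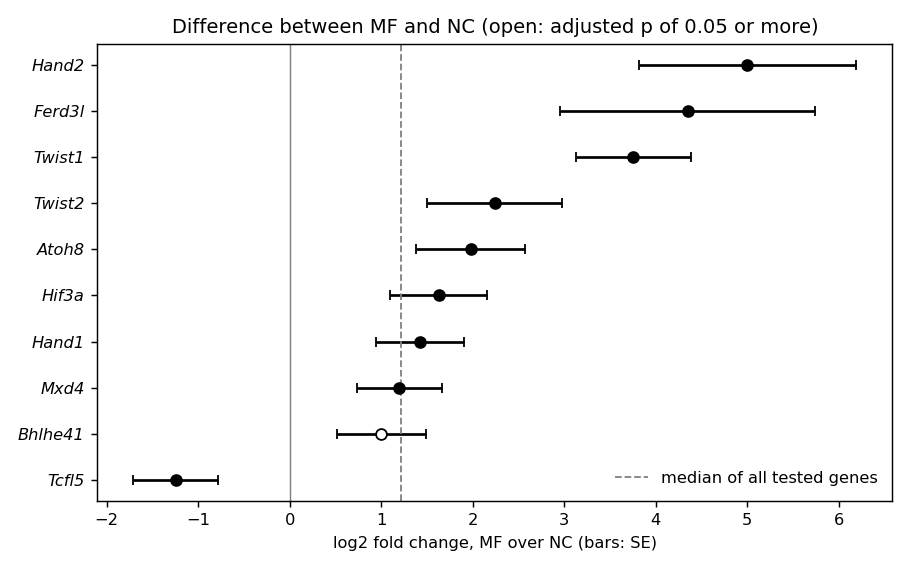
Log2 fold change of MF over NC for the 10 bHLH genes (points, with bars of 1 SE from edgeR), with the dashed line at the median of all 1651 tested genes (1.22). Hand2, Ferd3l and Twist1 stand at 5.00, 4.35 and 3.76, Mxd4 stands near the dashed line, and the open point (Bhlhe41) did not pass the test. The dashed line pools genes that rose and fell, and the median of those called higher in MF (not drawn) was 1.63.

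Ordered by mean FPKM in MF, Hand1 (113) was followed by Twist1 (50.9), Hand2 (40.0), Mxd4 (7.66), Tcfl5 (6.08), Atoh8 (5.32), Twist2 (4.79), Hif3a (2.40), Ferd3l (1.15) and Bhlhe41 (1.07). Each neighbouring pair in this order overlapped in its range over the MF libraries. Within every MF library, however, Hand1 was above Twist1, Twist1 above Hand2 and Twist2 above Hif3a. The other neighbouring pairs changed order in at least 1 MF library. In NC the order by mean FPKM was Hand1 (41.9), Tcfl5 (14.4), Twist1 (3.77), Mxd4 (3.34), Atoh8 (1.35), Hand2 (1.25), Twist2 (1.01), Hif3a (0.776), Bhlhe41 (0.532) and Ferd3l (0.0481). Hand1 was clear of Tcfl5, and Tcfl5 of Twist1, in every NC library. The place of Hand2 and Tcfl5 thus differed most between the orders.

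Of the MF libraries, replicate 2 had the lowest level for 7 of the 10 genes and the highest for Tcfl5 and Ferd3l. NC replicate 2 was the lowest NC library for 8, with Ferd3l tied at 0, and the highest for Hif3a and Bhlhe41. These counts are near the shares over all tested genes higher in MF (82.8% and 72.1%). The level of MF replicate 2 relative to the mean of the other MF libraries differed among members. It was 0.0533 times that mean for Hand2, 0.255 for Twist1, 0.317 for Hif3a, 0.346 for Twist2, 0.430 for Hand1, 0.461 for Atoh8, 0.663 for Bhlhe41, 0.811 for Mxd4, 1.81 for Tcfl5 and 6.99 for Ferd3l, where the median over the tested genes higher in MF was 0.589. Marker sums also set MF replicate 2 apart. In MF replicates 1, 2 and 3 the 9 deposited fibroblast and mesenchyme markers (of 10) summed to 1129, 220 and 953 FPKM, the 12 cardiomyocyte markers to 732, 164 and 376 FPKM, and the 4 deposited pluripotent cell markers (of 14) to 68.8, 185 and 65.5 FPKM. In NC replicates 1 to 3 the same sums were 254, 101 and 141 FPKM, 61.1, 40.1 and 86.4 FPKM, and 324, 750 and 274 FPKM. The part of cell makeup in the bHLH values was not tested. Without replicate 2 of both groups the log2 fold change was 5.06 for Hand2, 1.45 for Hand1 and 3.89 for Twist1, and the 8 rises and 1 fall were then made up with Bhlhe41 in the place of Ferd3l.

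The Hand2 locus holds a deposited noncoding gene on each side. Hand2os1, a long noncoding gene on the minus strand (chromosome 8, 57281117 to 57324233), had 425, 17 and 433 counts in MF replicates 1 to 3, against 3, 2 and 19 counts in NC replicates 1 to 3. It was high in MF replicates 1 and 3, and MF replicate 2 lay below NC replicate 3 in counts and per length (0.0788 and 0.0991 FPKM), so the groups overlapped. Hand2os1 passed the filter of 0.5 FPKM through its MF libraries alone (mean 1.29 FPKM in MF and 0.0412 FPKM in NC), so its log2 fold change of 4.96 (SE 1.22, edgeR adjusted p = 0.0170) is a description. Of its 37 annotated transcripts, 34 start upstream of the Hand2 start, 13 of them within the 250 bases before it and the nearest at 124 bases, while 3 start inside Hand2. Hand2 and Hand2os1 share 461 exonic bases, 19.6% of the 2351 of Hand2 and 3.59% of the 12840 of Hand2os1. Hand2os1 counts were 15.9%, 13.8% and 19.6% of the Hand2 counts in MF and 15.0%, 22.2% and 18.3% in NC. How much of each count lies in the shared bases was not tested, since strand use in counting is not stated.

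On the other side, 5033428I22Rik (chromosome 8, 57332118 to 57354580, plus strand) starts 7485 bases after the end of Hand2 and shares no base with it. It had 321, 7 and 256 counts in MF replicates 1 to 3, against 5, 0 and 10 counts in NC replicates 1 to 3. MF replicates 1 and 3 were again high, and MF replicate 2 lay within the NC range. It too passed the filter through MF alone (its NC mean was 0.0301 FPKM), and its log2 fold change of 5.04 (SE 1.35, edgeR adjusted p = 0.0201) is likewise a description. The next deposited neighbour, 2500002B13Rik, lies 163421 bases away and fell 2.27-fold (edgeR adjusted p = 0.0468).

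**Figure D4:**
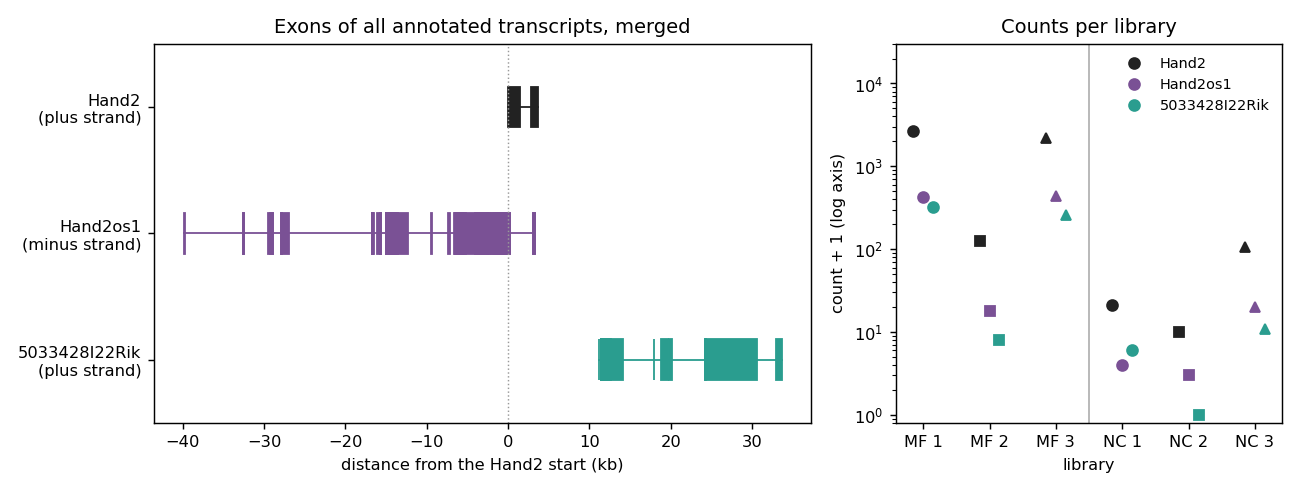
Left, merged exons of Hand2 and its noncoding neighbours as boxes, placed by distance from the Hand2 start in kb and labelled with their strand. Right, counts + 1 on a log axis in each library, MF left and NC right; the 3 genes are high in MF replicates 1 and 3 and low in MF replicate 2 and all NC libraries.

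Likeness to Hand2 was measured as the mean absolute difference between log2(FPKM + 0.1) profiles, each centred on its mean over the 6 libraries, for 1650 other genes. The libraries and their groups are shared by all profiles, so this is a description. The nearest were Pitx1 (0.548), a homeodomain factor of the hindlimb and pituitary, Lum (0.606), a matrix proteoglycan, Lrrc17 (0.755), the ligand gene Wnt2 (0.769) and Sphkap (0.771), where the median over all genes was 2.02. Pitx1 had 26.3, 1.12 and 18.6 FPKM in MF replicates 1 to 3, against 0.433, 0.257 and 1.31 FPKM in NC replicates 1 to 3. It too was high in MF replicates 1 and 3, while MF replicate 2 lay inside the NC range. Among the bHLH genes Twist1 came nearest (1.05, rank 32), Twist2 stood at rank 183 and Hand1 at rank 362. Hand2os1 stood at rank 36 and 5033428I22Rik at rank 56.

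The Hand2 start region is shown because Hand2os1 transcripts begin in it. It runs from 250 bases before to 50 bases after the RefSeq start (GRCm38.p6, chr8:57320733-57321032, plus strand), and capitals mark the letters CANNTG, which read the same on both strands, so one search covers both.
Hand2: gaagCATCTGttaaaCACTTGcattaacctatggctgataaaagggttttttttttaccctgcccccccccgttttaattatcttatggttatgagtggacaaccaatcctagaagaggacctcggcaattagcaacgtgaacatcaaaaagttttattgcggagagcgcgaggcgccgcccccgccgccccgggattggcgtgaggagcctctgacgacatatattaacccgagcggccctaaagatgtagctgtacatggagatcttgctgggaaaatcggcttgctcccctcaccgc

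In this window CATCTG starts 246 bases and CACTTG 235 bases before the Hand2 start. The RefSeq table had a window for 9 of the 10 genes. CANNTG was found 11 times in 5 of the 9 windows: Bhlhe41 had 4 (CAGGTG at 239 and 225 bases and CACGTG at 153 bases before its start, and CAACTG at 8 bases after it), Hand2, Atoh8 and Mxd4 had 2 each, and Tcfl5 had 1. Twist1, Twist2, Ferd3l and Hif3a had none. Of all 32851 windows in the table, 72.3% held CANNTG, 39.6% held it at least 2 times and 6.49% at least 4 times. CATCTG or CATATG, letters bound by HAND and TWIST dimers, were in the windows of Hand2 and Mxd4 (2 of 9) and in 20.3% of all windows. A match is a description of letters and not of binding.

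Genes that work with or around the HAND and TWIST factors were counted in lists, and their counts are read beside the 62.1% higher and 35.4% lower over all tested genes. Of 25 heart field partners, 18 were in the table, 17 were tested, 16 rose and 1 fell. Their median log2 fold change was 2.72, where it was 1.22 over all tested genes and 1.63 over those called higher in MF. The T-box repressor Tbx2 had 13.9, 2.74 and 15.6 FPKM in MF and 0.299, 0.668 and 1.03 FPKM in NC (16.1-fold, edgeR adjusted p = 0.0111). Tbx5, a partner of the HAND factors in the heart, had 2.53, 0.178 and 3.67 FPKM in MF and 0.0137, 0.0133 and 0.0716 FPKM in NC (62.5-fold, edgeR adjusted p = 0.0119). The forkhead gene Foxc2 rose 8.93-fold (edgeR adjusted p = 0.0119) and Osr1 rose 6.58-fold (edgeR adjusted p = 0.0123). Like Hand2, Tbx2 and Tbx5 were high in MF replicates 1 and 3, whereas Osr1 was even over MF, at 2.52, 2.42 and 2.68 FPKM. The gene that fell was Foxh1, a forkhead partner of Nodal signals, 3.57-fold lower (edgeR adjusted p = 0.0232); it is named after its value was seen. Over all lists other than the bHLH genes, the hypoxia and clock lists included, 64 of 75 tested genes rose and 11 fell. Of the 75, 18 averaged under 0.5 FPKM in NC (Tbx5, Osr1, Bmp5, Bnc1, Alx1, Alx4, Myl2, Dcn and Lum among them) and 2 in MF (Myh3 and Ciart); these passed the filter through the group where they are high, so the counts are descriptions. Without MF replicate 3, where 0.727% of all tested genes were called in either direction, the rises were 3 and the falls 0. The falls were 4 without MF replicate 1, 7 without NC replicate 1 and 4 without NC replicate 2. There 27.1%, 38.8% and 44.5% of all tested genes were called in either direction.

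Of 14 signals upstream of Hand2, 6 were in the table and the 5 tested rose, with a median of 3.06. The endothelin receptors Ednrb and Ednra rose 9.11-fold and 8.33-fold (edgeR adjusted p = 0.0111 and 0.0123), and the ligands Bmp5 and Bmp4 rose 12.2-fold and 3.85-fold (edgeR adjusted p = 0.0196 and 0.0199). Bmp4 had 37.7, 14.4 and 42.7 FPKM in MF, against 6.62, 5.74 and 12.3 FPKM in NC, with MF replicate 2 just above NC replicate 3. Of 10 epicardial genes, 6 were in the table and the 4 tested rose: Bnc1 (13.0-fold), Aldh1a2 (4.64-fold), Upk3b (5.95-fold) and Upk1b (2.63-fold). In NC, Bmp5, Bnc1, Aldh1a2 and Upk3b averaged 0.301, 0.304, 0.387 and 0.241 FPKM. They passed the filter of 0.5 FPKM through MF alone, so their rises are descriptions.

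Of 19 genes of crest and pharyngeal mesenchyme, 8 were in the table and the 7 tested rose, Hand2 among them, with a median of 3.66. The 7 without Hand2 summed to 49.6, 11.6 and 44.5 FPKM in MF and to 7.28, 4.02 and 8.32 FPKM in NC, again with MF replicate 2 lowest in its group. The homeobox genes Prrx1, Alx1 and Alx4 rose 7.39-fold, 15.5-fold and 17.1-fold (edgeR adjusted p = 0.0111, 0.0153 and 0.0189). Of 11 genes of epithelial-mesenchymal transition, which TWIST factors drive, 5 were in the table and all 5 rose. Their median was 1.46, below the 1.63 of all genes called higher in MF. Cadherin 11 (Cdh11) rose 13.3-fold, Snai2 8.43-fold, Zeb1 2.76-fold and Mmp2 2.01-fold. The groups overlapped for Mmp2 and for the remaining gene, Fn1 (2.27-fold).

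Markers of cell types that the embryoid bodies could hold moved as well. All 12 deposited cardiomyocyte markers rose (median 2.96), among them Myh6 (16.2-fold), Myl3 (7.46-fold), Myl2 (31.0-fold) and Tnnt2 (11.4-fold). The groups did not overlap for 9 of the 12, as for 92.5% of all tested genes, and they overlapped for Myh7, Myl7 and Actn2. All 9 deposited fibroblast and mesenchyme markers rose (median 3.43), among them Col3a1 (29.2-fold), Dcn (20.6-fold), Postn (14.4-fold) and Lum (89.1-fold). Here the groups did not overlap for 6 of the 9, against 92.5% of all tested genes, and they overlapped for Col1a1, Col1a2 and Fbln1. Of 6 deposited endothelial and blood markers (of 16), 5 rose, among them Kdr (5.83-fold) and Cdh5 (3.28-fold). Pecam1, named after its value was seen, fell 2.75-fold. It had 6.41, 7.93 and 5.81 FPKM in MF replicates 1 to 3 and 8.43, 38.2 and 8.75 FPKM in NC replicates 1 to 3. NC replicate 2 thus held most of that difference. The 6 endothelial and blood markers summed to 26.8 to 56.0 FPKM in MF. In NC they summed to 15.5 to 45.6 FPKM, highest in NC replicate 2. The 3 deposited skeletal muscle markers (of 12) fell, Mylpf 6.40-fold, Myh3 7.56-fold and Mymx 4.61-fold, and summed to 3.09 to 18.0 FPKM in MF and 29.3 to 75.6 FPKM in NC. The 4 deposited pluripotent cell markers fell, Dppa3 5.96-fold, Utf1 5.23-fold, Prdm14 6.32-fold and Klf2 3.21-fold. Their part in the bHLH values was not tested.

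The usual partners of these factors are outside the table and were not analysed here: none of the 3 E proteins, the 4 Id proteins that block E proteins, the 4 myogenic bHLH factors, the 3 MESP and mesogenin genes, the 5 TAL, LYL and NHLH genes or the 9 MITF, SREBP and USF genes was in it. Of the 21 bHLH-PAS genes Hif3a alone was in it, and of 13 genes of the MYC, MAX, MXD and MLX network Mxd4 alone. Of 7 targets of the aryl hydrocarbon receptor, a bHLH-PAS protein, Nqo1 was in it and fell 2.37-fold (edgeR adjusted p = 0.0247). Of 8 targets of FIGLA, an oocyte bHLH factor, 1 was in it, Padi6, below the filter on low values.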

How the data were processed

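Poly-A RNA of 3 MF and 3 NC cultures was sequenced, per the labels' protocols. The submitters' processing notes name HISAT2 2.0.5, featureCounts and mm10, without settings. Per the file headers, the authors deposited for each of 2031 genes a raw count, an FPKM value and a normalized signal. The deposited table also gives the authors' log2 fold change with its p-value, raw and adjusted. Library totals were recovered from count and FPKM. At these depths 3 counts equal 0.156 to 0.201 FPKM for a gene of 1 kb. The 2031 genes take 5.68% to 10.4% of the totals, and 48 rows without a gene name (0.0134% to 0.0390%) were left out.

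Named genes averaging 0.5 FPKM or more (1651, among them all 10 bHLH genes) were fitted with edgeR 4.0.16 in R 4.3.3 (quasi-likelihood, two-sided, with group as its single term and the recovered totals as library sizes), and p-values were adjusted by Benjamini-Hochberg over the 1651 genes at 0.05. Since the authors chose the genes from these libraries, this does not control errors over the genome. The common biological coefficient of variation was 0.506. The steps were tested on simulated data in which most genes were unchanged, unlike the deposited genes, so that test does not bear on the calls given here. Alternatives were DESeq2 1.42.0, limma 3.58.1, other scalings, filters, adjustments, a replicate block and libraries left out.

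The members, the gene lists and the rule for naming were chosen with earlier results of these data known. All members were named, with full statistics where called, and up to 4 genes with the smallest p in each list. Same-numbered libraries deviated together (correlations 0.386, 0.554 and 0.320 for numbers 1, 2 and 3, each over 0.1), so ratios within numbers are given. No label states this pairing, and MF replicate 1 correlated more with NC replicate 3 (0.545). The main fit took no pairs, and the replicate number entered the block alternative alone. A planned protein comparison was replaced by coding bases from GENCODE M21 (GRCm38), whose exonic lengths and spans equal those in the files for all 10 genes; promoters came from RefSeq.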

Additional observations from a re-analysis of the deposited data

How the results depend on the processing

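For the bHLH genes the count of rises, 8 as reported, was 2 under TMM scaling, 2 under median-of-ratios scaling, 0 with adjustment over the recovered tests, 3 with DESeq2 and that adjustment and 5 with the replicate block and that adjustment; leaving out single libraries gave 0 to 8. Of all tested genes these settings called, in either direction, 53.3%, 40.3%, 0%, 36.2%, 30.5% and, with single libraries left out, 0.727% to 95.6%. The count of falls, 1 as reported, was 0 with each of these 3 wider adjustments and 0 to 1 with single libraries left out. For the 75 tested genes of the other lists the rises, 64 as reported, were 36 under TMM, 24 under median-of-ratios and 0 with the wider adjustment. They were 47 with DESeq2 and the wider adjustment, 36 with the block and the wider adjustment, and 3 to 63 with single libraries left out. Their falls, 11 as reported, were 0 with the wider adjustment, 6 with DESeq2 and 5 with the block under it, and 0 to 10 with single libraries left out. The search for CATCTG and CATATG in place of CANNTG gave 2 matches against 11. The log2 fold change of Bhlhe41 was -0.11 under median-of-ratios scaling. The scalings were computed on genes selected for a difference, and both take most genes as unchanged. The cause of the losses, under these scalings or the other settings, was not tested. The replicate block left the calls of the 10 bHLH genes at 8 rises and 1 fall and gave Hand2 a log2 fold change of 4.97 (edgeR adjusted p = 0.00209), and it changed no call among them. Over the 187 alternatives for single members, 122 kept direction and side of the threshold, 61 lost the call, 3 gained it and 1 turned sign. The DESeq2 and block fits with the wider adjustment, and the fit with the authors' size factors, were chosen after seeing the data. Depth limits Ferd3l, which had 52 counts in MF and 2 in NC.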

Other observations

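Deposited genes within 200 kb of a bHLH gene give the surroundings of the loci other than Hand2. Near Hif3a lie Ccdc8, a partner of the CUL7 complex, and Dact3, a regulator of WNT signals. Dact3 had 46.3, 24.2 and 50.1 FPKM in MF replicates 1 to 3, against 20.1, 9.41 and 17.7 FPKM in NC replicates 1 to 3, and it rose 2.56-fold (edgeR adjusted p = 0.0269). Ccdc8 rose 3.04-fold (edgeR adjusted p = 0.0240). Near Bhlhe41, Rassf8 rose 2.07-fold with overlapping groups (edgeR adjusted p = 0.0401), and sarcospan (Sspn) was 2.83-fold higher (edgeR adjusted p = 0.0325). Sspn passed the filter of 0.5 FPKM through MF alone (mean 0.792 FPKM in MF and 0.279 FPKM in NC), so its fold is a description. Near Hand1 the processed pseudogene Gm12245, a kind of copy whose counts are uncertain, fell 2.05-fold (edgeR adjusted p = 0.0460). Near Tcfl5, Ntsr1, the high-affinity neurotensin receptor, was too low to be tested, with 21, 3 and 20 counts in MF and 0 counts in each NC library. These genes were in the table through the same selection as the bHLH genes.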
